A study of Homo sapiens with 8 samples.

Results

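The 34 genes described here belong to 2 linked stress programmes and were chosen by symbol from a table of 19541 genes, where each had 1 entry. An ATF4 arm of 18 genes holds the transcription factor ATF4, its partners and its targets in amino acid supply. An ER arm of 16 genes holds the chaperones, folding enzymes and sensors of the endoplasmic reticulum (ER). Their mRNA was measured by RNA sequencing in HAP1, a near-haploid and established line of human cells derived from a chronic myeloid leukaemia line. The 8 samples formed 4 groups of 2, all in the same HAP1 background. SMARCB1-null samples came from passage 12 and were made with CRISPR, 1 with guide 1 and 1 with guide 2. SMARCA4-null samples came from passage 12 in the same way, with guides 1 and 2 for SMARCA4. Double-null samples lacked both genes, carried guide 1 for SMARCB1 and guide 2 for SMARCA4, and were passages 15 and 18 of a single line. Wildtype (WT) samples were passages 9 and 12 of the wildtype HAP1 line. Passage and loss of both genes therefore cannot be told apart in double-null cells, and the spread within the double-null and WT groups is that between passages of a line. Whether the guide-derived samples were clones or pools is not given in the sources used here.

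SMARCB1 is a core subunit, and SMARCA4 an ATPase, of the SWI/SNF chromatin remodelling complexes. ATF4 is translated when kinases that sense amino acid shortage, ER stress, haem lack or viral RNA phosphorylate the initiation factor eIF2. ATF4 then switches on genes for amino acid synthesis, uptake and tRNA charging, together with feedback regulators. The ER arm is induced mainly through the sensors ATF6 and IRE1 when unfolded proteins collect in the ER lumen, and the kinase PERK links the arms, since it senses the same stress and phosphorylates eIF2. ATF4 itself is governed largely at translation, so its mRNA is no direct readout of its activity.

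The deposited values are the authors' comparisons of each null group with WT. Each consists of a ratio of group means, a p-value and an adjusted p-value (FDR), here called at an FDR under 0.05. They carry no per-sample values and no standard errors. Whole reads per library could be recovered from the ratios and totals for 5 of the 34 genes, namely NUPR1, SESN2, DNAJC3, MANF and STC2. For these, values are given for the deeper and the shallower library of each group, scaled to a common depth, and libraries could not be tied to a passage or guide. Relative depths were 70.2 and 67.9 M reads in SMARCB1-null cells, 92.3 and 71.5 M in SMARCA4-null cells, 103 and 75.7 M in double-null cells, and 81.8 and 68.3 M in WT. For the other genes the level of each group, in depth-corrected reads per library, follows from the total reads and the 3 ratios. On 2294 recovered genes with at least 5000 total reads that level missed the recovered group mean by a median of 0.243%, with a 95th percentile of 0.807%. The miss can be larger where 1 library holds most reads of a group. For the neuronal marker NEFL the double-null level was 50734, above the mean of its recovered libraries at 85852 and 3135. The marker sums below share this limit.

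The targeted genes followed the labels. In the authors' deposited table the SMARCB1 ratio was 0.109 in SMARCB1-null cells, 0.97 in SMARCA4-null cells and 0.182 in double-null cells, and the SMARCA4 ratio was 0.947, 0.0918 and 0.152 in the same order. One library of the SMARCB1 null and 1 of the double null stood apart in genes of other cell types. The 12 neuroendocrine and neuronal markers, all measured and none at 0 in any group, summed to 2555 depth-corrected reads in SMARCB1-null cells, 2339 in SMARCA4-null cells, 136466 in double-null cells and 6897 in WT. SYT1, a synaptic vesicle protein, made up 5834 of the WT sum, and without it the sums were 2162 in SMARCB1-null cells, 2257 in SMARCA4-null cells, 133143 in double-null cells and 1064 in WT. The 3 of them with recovered reads, CHGA, CHGB and NEFL, summed to 95090 in the deeper and 3503 in the shallower double-null library. The 11 skeletal muscle markers, all measured, summed to 19185 in SMARCB1-null cells, 222 in SMARCA4-null cells, 1026 in double-null cells and 719 in WT. Their 3 recovered members, TNNC2, MYOG and MYOD1, summed to 1523 in the deeper and 3.48 in the shallower SMARCB1-null library, and the muscle regulator MYOD1 had no reads in the shallower SMARCB1-null or shallower SMARCA4-null library. MYOG, another such regulator, had none in either SMARCA4-null library, the shallower double-null library or either WT library. The 8 of 10 blood cell markers measured summed to 149 in SMARCB1-null cells, 45.7 in SMARCA4-null cells, 408 in double-null cells and 38.1 in WT, with SPI1 and CD3E at 0 reads in both WT libraries. Fibroblast markers, 6 of 6 measured, summed to 2702, 997, 2789 and 718 in the same order, with LUM at 0 in both WT libraries. In bulk RNA, more cells of another type and more RNA per cell cannot be told apart. The part of these genes in the results below was not tested, except where a fit without the deeper library is given. The parental lineage genes ABL1, BCR, GATA2 and TAL1 were read in every group, at 12266 summed depth-corrected reads in SMARCB1-null cells, 8472 in SMARCA4-null cells, 14366 in double-null cells and 11364 in WT. The sums hide opposite changes. TAL1 had 981 in SMARCA4-null cells against 4684 in WT, and ABL1 had 4511 in double-null cells against 1280 in WT. The authors' deposited table called 1 of the 4 lower in SMARCB1-null cells, 2 lower in SMARCA4-null cells, and 2 higher and 2 lower in double-null cells.

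The furthest called changes of the 34 genes lay in the ATF4 arm, CHAC1 upward at a log2 ratio of 2.12 in SMARCA4-null cells and VLDLR downward at -1.49 in SMARCB1-null cells, per the authors' deposited table. In the ER arm the log2 ratios that the authors' deposited table called ran from -0.71 (STC2) to 0.61 (DNAJC3), both in double-null cells. As a background, the authors' deposited table called 13.6% of its genes in SMARCB1-null cells, 11.9% in SMARCA4-null cells and 18% in double-null cells, and 16.0%, 13.8% and 20.2% over genes with at least 5000 total reads. Of the 18 genes of the ATF4 arm, the authors' deposited table called 2 higher and 3 lower in SMARCB1-null cells, 5 higher and 0 lower in SMARCA4-null cells, and 4 higher and 3 lower in double-null cells. Of the 16 genes of the ER arm, it called 1 higher and 1 lower in SMARCB1-null cells, 0 in either direction in SMARCA4-null cells, where 2 genes had an unadjusted p under 0.05, and 4 higher and 1 lower in double-null cells. For direction, the background of higher calls over all genes was 7.86%, 7.39% and 12% in the same order of nulls, and that of lower calls was 5.76%, 4.49% and 5.97%. In each arm 10 genes were called in none of the 3 comparisons. The comparisons share the WT samples, so calls in several nulls are not independent of each other.

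The median log2 ratio of the ATF4 arm per the authors' deposited table was 0.16 in SMARCB1-null cells, 0.24 in SMARCA4-null cells and 0.31 in double-null cells. The ER arm had medians of 0.14, 0.15 and 0.07 in the same nulls. Over the 10933 genes with at least 5000 total reads the medians were 0.05, 0.02 and 0.05, and over all genes 0.06, 0.03 and 0.17. The genes of the ATF4 arm were more scattered than those of the ER arm. Their median absolute log2 ratio was 0.34, 0.24 and 0.50, against 0.20, 0.18 and 0.27 in the ER arm. It was 0.20, 0.18 and 0.21 over genes with at least 5000 reads, but 0.31, 0.28 and 0.37 over all genes. The value over all genes thus exceeded that of the ATF4 arm in SMARCA4-null cells. At least 1.5-fold in either direction, called or not, were 6, 5 and 6 of the 18 ATF4-arm genes, against 1, 1 and 2 of the 16 ER-arm genes. That share was 13.5%, 12.5% and 16.2% over genes with at least 5000 reads. Of all 19541 genes, 6199, 5941 and 7452 were that far from WT, a share near or above that of the ATF4 arm. The ATF4-arm counts include NUPR1, which has 200 reads, and without it were 5, 4 and 5 of 17. In SMARCB1-null and double-null cells they also include ALDH1L2, which has 966 reads. The ATF4-arm medians of the SMARCB1 null and the double null rest on few genes: among members with at least 5000 total reads, which leaves out ALDH1L2 and NUPR1, they were 0.05 and 0.13. The difference between arms was not tested.

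**Figure D1:**
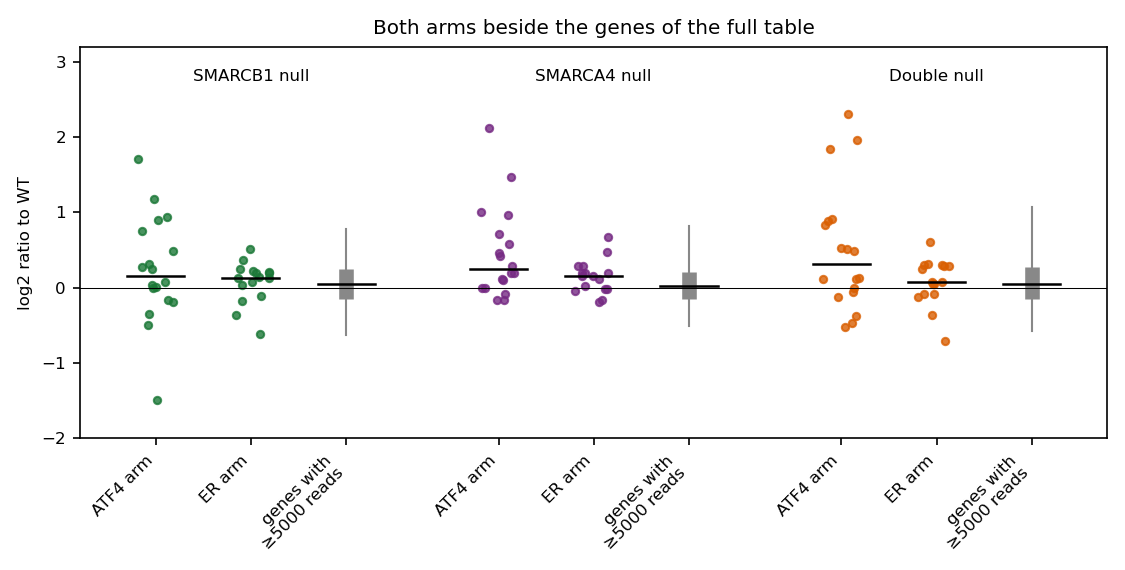
The vertical axis gives the log2 ratio of each null to WT from the authors' deposited table. Points are genes of the ATF4 arm (18) and the ER arm (16), black lines are medians, and the grey bar and line cover the percentiles 25 to 75 and 5 to 95 of genes with at least 5000 total reads. The ATF4 arm spreads from -1.49 to 1.71 in SMARCB1-null cells, from -0.16 to 2.12 in SMARCA4-null cells and from -0.52 to 2.31 in double-null cells, a wider span than the ER arm in each.

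**Figure D2:**
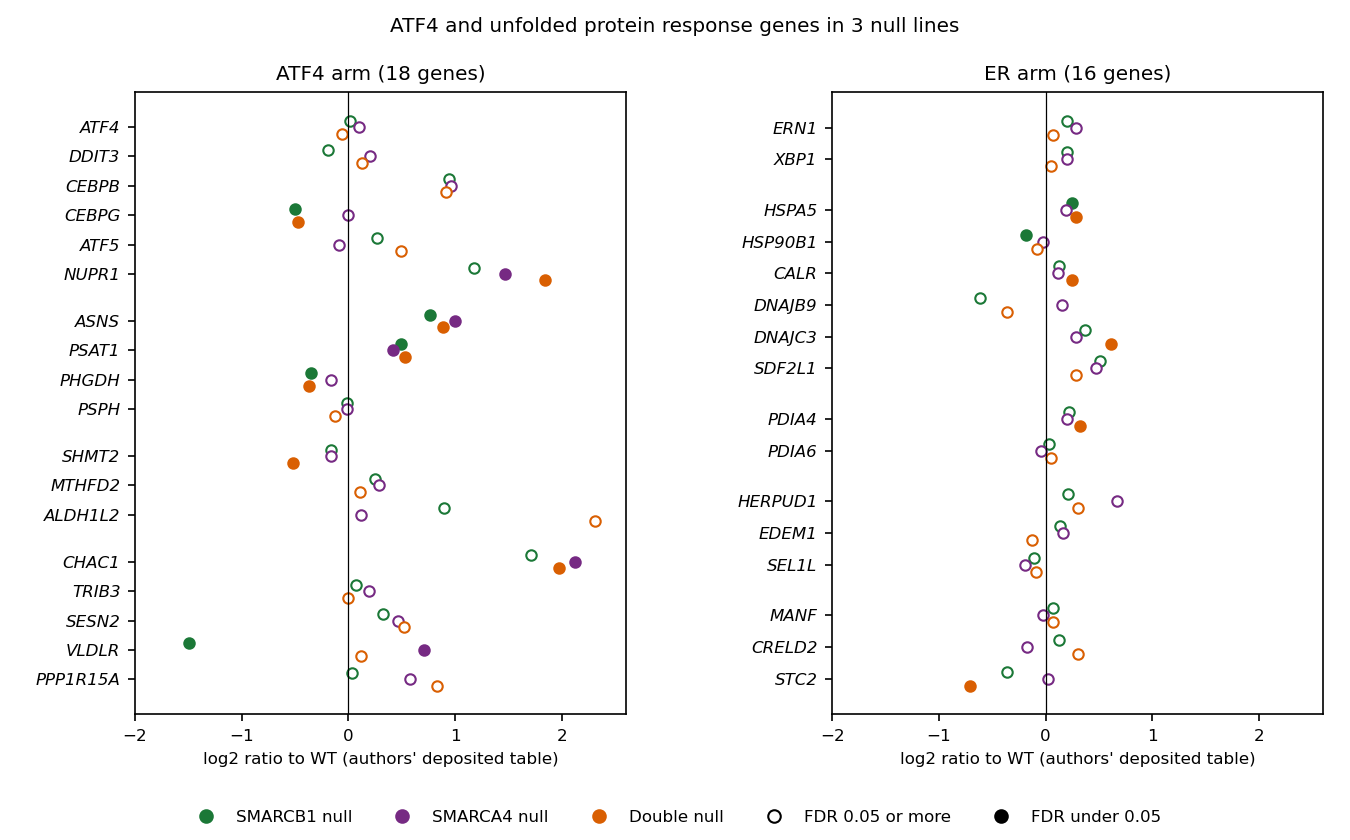
The horizontal axis gives the log2 ratio to WT of each of the 34 genes per the authors' deposited table, ordered by role, for the SMARCB1 null, the SMARCA4 null and the double null. Filled points were called at an FDR under 0.05. ASNS and PSAT1 are filled and right of 0 in all 3 nulls, and VLDLR is filled left of 0 in SMARCB1-null cells and right of 0 in SMARCA4-null cells.

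ATF4 binds with C/EBP partners to a composite element, the C/EBP-ATF response element (CARE). The letters TGATGNAA were searched on both strands in the 250 bases before the start of each gene in the RefSeq promoter table (GRCh38.p14), which held 14 of the 18 ATF4-arm genes and all 16 ER-arm genes. They were found in 3 of 14 ATF4-arm genes (21.4%), in 1 of 16 ER-arm genes (HERPUD1, 6.25%) and in 1061 of 27305 genes of the promoter table (3.89%). The 3 promoters are shown because their genes had different calls below. ASNS was called higher in every null, and CEBPG was called lower in SMARCB1-null and double-null cells. CHAC1 was called higher in SMARCA4-null and double-null cells, and its SMARCB1-null ratio of 3.27 missed the threshold (FDR 0.0758). Each is printed 5′ to 3′ on the gene's strand, ending at the base before the start, with the match in capitals. ASNS lies at chr7:97872409-97872658 on the minus strand with its match at -68 to -61. CHAC1 lies at chr15:40953221-40953470 on the plus strand with a match on the reverse strand at -209 to -202. CEBPG lies at chr19:33373863-33374112 on the plus strand with its match at -42 to -35.
ASNS: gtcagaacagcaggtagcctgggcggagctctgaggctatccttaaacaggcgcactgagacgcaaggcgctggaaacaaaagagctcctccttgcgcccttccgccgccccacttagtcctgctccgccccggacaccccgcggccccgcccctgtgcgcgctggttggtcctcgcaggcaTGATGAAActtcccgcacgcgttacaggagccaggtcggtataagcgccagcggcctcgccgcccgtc
CHAC1: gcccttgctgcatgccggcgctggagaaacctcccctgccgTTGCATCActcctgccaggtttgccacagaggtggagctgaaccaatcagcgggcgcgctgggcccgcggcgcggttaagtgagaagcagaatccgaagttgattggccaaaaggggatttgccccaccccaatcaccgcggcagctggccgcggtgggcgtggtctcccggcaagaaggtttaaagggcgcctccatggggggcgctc
CEBPG: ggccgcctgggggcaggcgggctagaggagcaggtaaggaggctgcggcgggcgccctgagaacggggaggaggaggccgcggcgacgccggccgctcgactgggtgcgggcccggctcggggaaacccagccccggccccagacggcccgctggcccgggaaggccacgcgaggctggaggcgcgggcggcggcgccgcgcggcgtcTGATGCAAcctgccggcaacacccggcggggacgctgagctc
A match describes letters in the window and shows no binding.

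Among the transcription regulators of the ATF4 arm, ATF4 itself was called in none of the nulls. Its level was 31484 depth-corrected reads per library in SMARCB1-null cells, 33700 in SMARCA4-null cells, 30073 in double-null cells and 31351 in WT. The log2 ratios per the authors' deposited table were 0.01, 0.10 and -0.06, with FDRs of 1, 0.604 and 0.737. DDIT3 (CHOP), the pro-apoptotic factor induced by ATF4 under prolonged stress, had 928, 1216 and 1160 depth-corrected reads in SMARCB1-null, SMARCA4-null and double-null cells and 1058 in WT. Its FDR per the authors' deposited table was 0.891, 0.899 and 0.888. DDIT3 overlaps MARS and MBD6 on the opposite strand, and whether the authors counted by strand is not given in the sources used here.

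CEBPG, a C/EBP partner of ATF4 without an activation domain, fell in 2 nulls. It stood at 6674 depth-corrected reads in SMARCB1-null cells, 9430 in SMARCA4-null cells and 6805 in double-null cells, against 9446 in WT. The authors' deposited table gave ratios of 0.707 (FDR 0.000222), 0.998 (FDR 1) and 0.72 (FDR 0.000412). The SMARCA4-null level thus lay at that of WT, and both groups that lack SMARCB1 lay below it. CEBPB, a C/EBP activator of stress and inflammatory genes, had about the same ratio in every null and passed the threshold in none. Its ratios per the authors' deposited table were 1.92 (FDR 0.0739), 1.95 (FDR 0.0686) and 1.87 (FDR 0.0733), with 2432, 2478 and 2380 depth-corrected reads against 1270 in WT. ATF5, a relative of ATF4 that is likewise controlled at translation, had ratios of 1.21, 0.939 and 1.41 per the authors' deposited table, none called, and overlaps NUP62 and IL4I1 on the opposite strand.

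NUPR1, a small stress-induced chromatin protein and ATF4 target, had the fewest reads of the 34 genes, 200 in all. Its depth-corrected reads in the deeper and shallower library were 25.8 and 19.7 in SMARCB1-null cells, 25.6 and 29.8 in SMARCA4-null cells, 43.7 and 28.1 in double-null cells, and 9.64 and 10.4 in WT. Every null library was above both WT libraries. Among 4519 recovered genes with at least 100 reads, both null libraries lay above both WT libraries for 37.3% in SMARCB1-null cells, 36.3% in SMARCA4-null cells and 43.4% in double-null cells, so such a separation alone is common. The authors' deposited table gave ratios of 2.27 (FDR 0.0687), 2.76 (FDR 0.0392) and 3.58 (FDR 0.0141). On the recovered reads, edgeR's quasi-likelihood test with Benjamini-Hochberg adjustment over 4783 genes gave log2 fold changes of 1.18 (adjusted p = 0.111) in SMARCB1-null cells, 1.46 (adjusted p = 0.0548) in SMARCA4-null cells and 1.84 (adjusted p = 0.0122) in double-null cells. In that fit 21.0%, 17.3% and 28.4% of genes were called in the same order. Without the deeper double-null library the double-null change was 1.48 with an edgeR adjusted p of 0.0601. Without the deeper or the shallower WT library the edgeR adjusted p in double-null cells was 0.152 or 0.133, and DESeq2 gave 0.0583. In SMARCA4-null cells NUPR1 was called without the deeper or the shallower double-null library (edgeR adjusted p = 0.0366 or 0.0466) and when only the 4 libraries compared were fitted (0.0189), but not by DESeq2 (adjusted p = 0.206).

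The 4 amino acid enzymes did not move as a block. ASNS, asparagine synthetase and a classical ATF4 target, rose in all 3 nulls. It had 12964 depth-corrected reads in SMARCB1-null cells, 15328 in SMARCA4-null cells and 14177 in double-null cells, against 7648 in WT. The ratios per the authors' deposited table were 1.7 (FDR 3.5e-05), 2 (FDR 3.79e-09) and 1.85 (FDR 2.72e-07). PSAT1, the transaminase in the middle of serine synthesis, rose in all 3 as well, with 23948, 22688 and 24613 depth-corrected reads in SMARCB1-null, SMARCA4-null and double-null cells against 17016 in WT. Its ratios per the authors' deposited table were 1.41 (FDR 0.000155), 1.33 (FDR 0.00299) and 1.45 (FDR 2.14e-05). Of all genes, 3.10% were called higher in all 3 nulls per the authors' deposited table, and ASNS and PSAT1 were the 2 members among the 34 that were.

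PHGDH and PSPH, the enzymes before and after PSAT1 in serine synthesis, were called higher in no null. PHGDH had 15208 depth-corrected reads in SMARCB1-null cells, 17335 in SMARCA4-null cells and 15022 in double-null cells, against 19371 in WT. It fell in both groups that lack SMARCB1, with ratios per the authors' deposited table of 0.785 (FDR 0.0273), 0.895 (FDR 0.508) and 0.775 (FDR 0.0152). PSPH had ratios of 0.995, 0.991 and 0.913 per the authors' deposited table, with FDRs of 1, 1 and 0.776. PHGDH and CEBPG were thus the 2 members with calls in SMARCB1-null and double-null cells that both point down, but none of the ratios between nulls was tested for them, since their reads per library were not recovered.

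Of the mitochondrial one-carbon enzymes, 1 of 3 was called in any null. SHMT2, which splits serine to feed the folate cycle, fell in double-null cells, to 11104 depth-corrected reads against 15884 in WT, with 14216 in SMARCB1-null cells and 14202 in SMARCA4-null cells. Its ratios per the authors' deposited table were 0.895 (FDR 0.535), 0.894 (FDR 0.574) and 0.699 (FDR 0.00156), and it overlaps NDUFA4L2 on the opposite strand. MTHFD2, the next enzyme of that pathway, had ratios of 1.19 (FDR 0.133), 1.22 (FDR 0.0757) and 1.08 (FDR 0.589) per the authors' deposited table, and overlaps SLC4A5 on the opposite strand. ALDH1L2, a mitochondrial folate dehydrogenase, had the highest ratio of any member in double-null cells, 4.97, but an FDR of 0.398 there per the authors' deposited table. It rests on 966 reads over all libraries, with 96.3 depth-corrected reads in SMARCB1-null cells, 56.3 in SMARCA4-null cells, 257 in double-null cells and 51.7 in WT. ALDH1L2 overlaps C12orf45 on the opposite strand. How its double-null reads divide between the 2 libraries is not known, and the part of the neuronal markers in its value was not tested.

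The effectors and feedback genes held the largest called changes of the ATF4 arm. CHAC1, which degrades glutathione and is induced by ATF4, had 929 depth-corrected reads in SMARCB1-null cells, 1235 in SMARCA4-null cells and 1115 in double-null cells, against 285 in WT. It rose in SMARCA4-null and double-null cells, with ratios per the authors' deposited table of 3.27 (FDR 0.0758), 4.34 (FDR 0.0145) and 3.92 (FDR 0.0207). The SMARCB1-null ratio missed the threshold, which does not show that this null differed from the others. TRIB3, a pseudokinase that feeds back on ATF4, had ratios of 1.05, 1.14 and 0.997 per the authors' deposited table, with FDRs of 0.965, 0.839 and 0.996. PPP1R15A (GADD34), the phosphatase subunit that reverses eIF2 phosphorylation, had ratios of 1.02, 1.5 and 1.78 with FDRs of 1, 0.675 and 0.328 per the authors' deposited table, and levels of 689, 1013 and 1201 depth-corrected reads in SMARCB1-null, SMARCA4-null and double-null cells against 676 in WT.

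VLDLR, a lipoprotein and reelin receptor that ATF4 can induce, was called in opposite directions in the single nulls. It had 370 depth-corrected reads in SMARCB1-null cells, 1693 in SMARCA4-null cells and 1126 in double-null cells, against 1037 in WT. The authors' deposited table gave ratios of 0.356 (FDR 4.05e-05), 1.63 (FDR 0.0237) and 1.09 (FDR 0.836). VLDLR is also the only one of the 34 in the shorter of the authors' deposited tables, of 409 genes. Its ratios there were the same, with FDRs of 1.15e-21, 6.8e-06 and 0.67. Both tables come from the same samples, so these FDRs are no separate evidence. The p-value of the authors' test in SMARCB1-null cells was 5.01e-24 there and 1.64e-06 in the longer table. The cause of that gap was not tested. The difference between the single nulls was not tested, and VLDLR overlaps VLDLR-AS1 on the opposite strand.

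SESN2, a sestrin that restrains mTORC1 when leucine is short, had recovered reads in every library. Depth-corrected reads in the deeper and shallower library were 2091 and 2087 in SMARCB1-null cells, 2455 and 2137 in SMARCA4-null cells, 2126 and 2650 in double-null cells, and 1593 and 1747 in WT. All 6 null libraries lay above both WT libraries, as both libraries did for 37.3%, 36.3% and 43.4% of the 4519 recovered genes in SMARCB1-null, SMARCA4-null and double-null cells. The authors' deposited table called it in no null, with ratios of 1.25 (FDR 0.703), 1.37 (FDR 0.542) and 1.43 (FDR 0.348). edgeR's quasi-likelihood test on the recovered reads gave log2 fold changes of 0.32 (adjusted p = 0.0838), 0.46 (adjusted p = 0.0217) and 0.52 (adjusted p = 0.00764) in SMARCB1-null, SMARCA4-null and double-null cells. The 2 tests thus disagreed on SESN2 in SMARCA4-null and double-null cells. In the double null the edgeR adjusted p was 0.00255 without the deeper double-null library, but 0.146 or 0.0755 without the deeper or the shallower WT library and 0.0563 without the shallower double-null library. In the SMARCA4 null the edgeR call was lost in 6 of the 8 fits that leave out 1 library, namely those without a SMARCB1-null, SMARCA4-null or WT library, with adjusted p between 0.06 and 0.253, and without the filter on low counts (adjusted p = 0.0543). In SMARCB1-null cells SESN2 was called without the deeper double-null library (edgeR adjusted p = 0.0423) and when only the 4 libraries compared were fitted (0.0432).

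**Figure D3:**
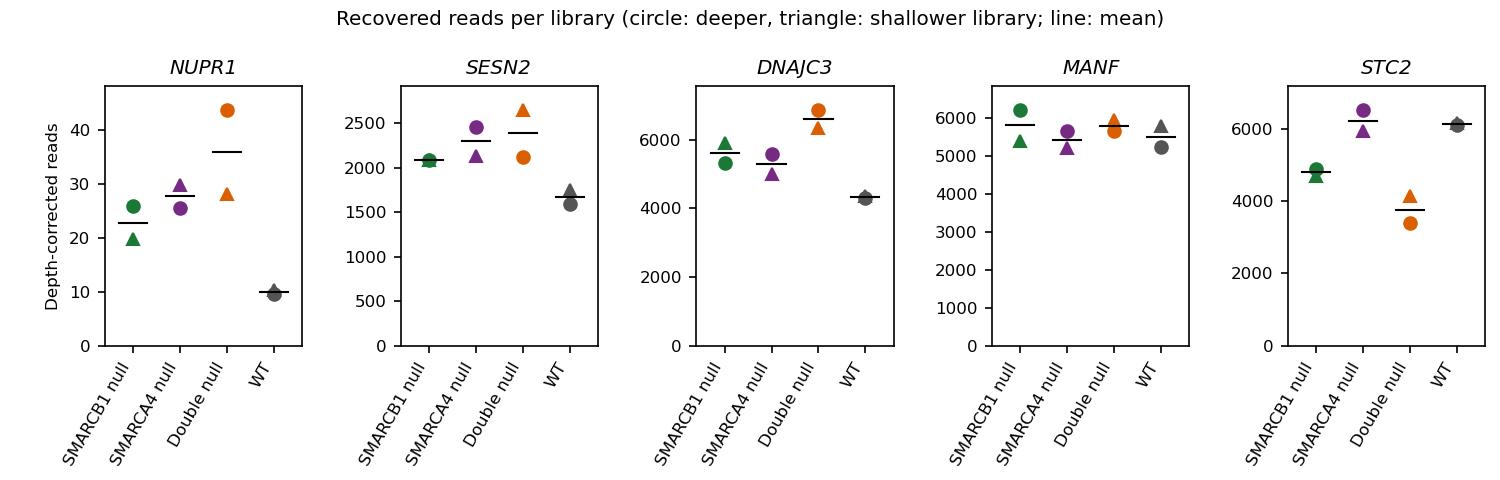
The vertical axis gives depth-corrected reads per library for the 5 genes whose reads could be recovered, from 0 in each panel. Circles are the deeper and triangles the shallower library of the SMARCB1 null, SMARCA4 null, double null and WT, and lines are group means of 2 libraries. All null libraries of NUPR1, SESN2 and DNAJC3 lie above both WT libraries, MANF overlaps WT in every null, and STC2 lies below WT in SMARCB1-null and double-null cells.

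The ER arm has its own promoter element, the ER stress response element (ERSE), which ATF6 binds together with NF-Y. The element, CCAAT and CCACG with 9 bases of any kind between them, was searched on both strands in the same 250-base windows. It was found in 6 of 16 ER-arm genes (37.5%), namely HSPA5, CALR, HSP90B1, CRELD2, PDIA6 and XBP1, in 0 of 14 ATF4-arm genes and in 25 of 27305 genes of the promoter table (0.0916%). The 2 searched motifs share no bases in any of these windows, since no gene of the list held both. The promoters of the 3 chaperones with the most reads are shown, and whether the element had a part in their levels was not tested. HSPA5 lies at chr9:125241344-125241593 on the minus strand with its match at -66 to -48. CALR lies at chr19:12938359-12938608 on the plus strand with a match on the reverse strand at -225 to -207. HSP90B1 lies at chr12:103930160-103930409 on the plus strand with matches at -194 to -176 and, on the reverse strand, at -89 to -71.
HSPA5: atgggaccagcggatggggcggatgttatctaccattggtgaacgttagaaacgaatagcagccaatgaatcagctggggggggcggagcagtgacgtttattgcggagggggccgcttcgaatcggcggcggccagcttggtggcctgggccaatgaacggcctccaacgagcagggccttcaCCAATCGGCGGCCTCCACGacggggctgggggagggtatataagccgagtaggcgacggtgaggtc
CALR: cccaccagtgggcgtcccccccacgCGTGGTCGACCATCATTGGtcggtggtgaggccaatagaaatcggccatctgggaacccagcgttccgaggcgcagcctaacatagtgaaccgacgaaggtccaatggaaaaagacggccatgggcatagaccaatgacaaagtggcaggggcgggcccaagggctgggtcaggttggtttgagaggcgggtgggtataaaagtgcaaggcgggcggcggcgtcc
HSP90B1: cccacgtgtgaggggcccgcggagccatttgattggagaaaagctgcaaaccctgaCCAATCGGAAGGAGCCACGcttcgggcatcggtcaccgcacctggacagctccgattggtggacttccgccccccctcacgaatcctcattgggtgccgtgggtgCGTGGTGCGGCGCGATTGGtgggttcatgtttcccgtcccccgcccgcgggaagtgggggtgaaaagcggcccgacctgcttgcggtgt
Capitals again mark the matches.

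Among the chaperones, HSPA5 (BiP), the ER Hsp70 that holds the sensors inactive, was called slightly higher in SMARCB1-null and double-null cells. It had 46150 depth-corrected reads in SMARCB1-null cells, 44258 in SMARCA4-null cells and 47614 in double-null cells, against 38929 in WT. The ratios per the authors' deposited table were 1.19 (FDR 0.0118), 1.14 (FDR 0.104) and 1.22 (FDR 0.00126). HSP90B1 (GRP94), the ER Hsp90, fell in SMARCB1-null cells, with 66156 depth-corrected reads there, 73579 in SMARCA4-null cells and 70740 in double-null cells, against 74841 in WT. Its ratios per the authors' deposited table were 0.884 (FDR 0.0211), 0.983 (FDR 0.926) and 0.945 (FDR 0.392), and it overlaps C12orf73 on the opposite strand. HSPA5 and HSP90B1 were called in opposite directions in SMARCB1-null cells, and neither of these calls is kept at an FDR under 0.01. CALR (calreticulin), the lectin chaperone, was called higher in double-null cells. It had 54572, 54282 and 59422 depth-corrected reads in SMARCB1-null, SMARCA4-null and double-null cells against 49919 in WT. The authors' deposited table gave CALR ratios of 1.09 (FDR 0.245), 1.09 (FDR 0.321) and 1.19 (FDR 0.00174). For these chaperones a missing call in a null does not show that this null differed from the others.

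DNAJC3 (p58IPK), a co-chaperone that also restrains PERK, rose in double-null cells. Depth-corrected reads in the deeper and shallower library were 5327 and 5894 in SMARCB1-null cells, 5595 and 5003 in SMARCA4-null cells, 6871 and 6343 in double-null cells, and 4313 and 4366 in WT. Every null library was above both WT libraries, a separation shared by 37.3%, 36.3% and 43.4% of the recovered genes in the same order of nulls. The authors' deposited table gave ratios of 1.29 (FDR 0.317), 1.22 (FDR 0.552) and 1.52 (FDR 0.0247). edgeR's quasi-likelihood test on the recovered reads gave log2 fold changes of 0.37 (adjusted p = 0.0158), 0.29 (adjusted p = 0.0575) and 0.61 (adjusted p = 0.00052). The double-null call held in each fit that left out 1 library, with an adjusted p of 0.00393 without the deeper double-null library. The edgeR call in SMARCB1-null cells was lost without the deeper or shallower WT library (adjusted p = 0.166 or 0.137) or the shallower SMARCB1-null library (adjusted p = 0.139), and it had an adjusted p of 0.0457 without the deeper SMARCB1-null library and 0.0575 with TMM scaling. In SMARCA4-null cells DNAJC3 was called without the deeper double-null library (edgeR adjusted p = 0.0444), when only the 4 libraries compared were fitted (edgeR adjusted p = 0.0172) and by DESeq2 (adjusted p = 0.0142). DNAJC3 also differed between the double null and the SMARCA4 null, by 0.32 on the log2 scale (edgeR adjusted p = 0.0408), in a contrast where 15.5% of genes were called. That call was lost without any 1 of 7 libraries, with adjusted p between 0.0693 and 0.374, and was also lost with TMM scaling (0.136) and without the filter (0.0745). Of the 8 fits that left out 1 library, it was kept only in that without the shallower double-null library. DESeq2 on all libraries called the same difference (adjusted p = 0.00569).

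DNAJB9 (ERdj4), a co-chaperone and IRE1 target, had ratios of 0.655, 1.11 and 0.78 per the authors' deposited table, with FDRs of 0.51, 0.945 and 0.672, and overlaps THAP5 and PNPLA8 on the opposite strand. SDF2L1, a partner of HSPA5 in the ER, had ratios of 1.42, 1.39 and 1.23 per the authors' deposited table, with FDRs of 0.32, 0.409 and 0.6. Neither was called. PDIA4 (ERp72), a disulphide isomerase, was called higher in double-null cells only, which does not show that the single nulls differed from them. It had 22171 depth-corrected reads in double-null cells, 20653 in SMARCB1-null cells and 20444 in SMARCA4-null cells, against 17738 in WT. Its ratios per the authors' deposited table were 1.16 (FDR 0.221), 1.15 (FDR 0.302) and 1.25 (FDR 0.0237). PDIA6, another isomerase, which also limits IRE1 signalling, had ratios of 1.02, 0.975 and 1.04 per the authors' deposited table with FDRs of 0.944, 0.946 and 0.795. It overlaps ATP6V1C2 on the opposite strand.

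The sensor and the degradation genes were called in no null. ERN1, which encodes the sensor IRE1, had 665 depth-corrected reads in SMARCB1-null cells, 707 in SMARCA4-null cells and 606 in double-null cells, against 579 in WT. XBP1, the transcription factor that IRE1 activates by splicing, had 8770, 8756 and 7883 in the nulls and 7637 in WT, and its splicing is not visible in gene totals. In the authors' deposited table their ratios lay between 1.03 and 1.22, with FDRs between 0.586 and 0.971. HERPUD1, a membrane scaffold of ER-associated degradation, had the highest ratio of the ER arm in SMARCA4-null cells, 1.59 with an FDR of 0.126 per the authors' deposited table, beside 1.16 (FDR 0.803) and 1.23 (FDR 0.574) in SMARCB1-null and double-null cells. EDEM1, which hands misfolded glycoproteins to degradation, had ratios of 1.1, 1.12 and 0.917, and SEL1L, the adaptor of the ubiquitin ligase, 0.925, 0.874 and 0.94 per the authors' deposited table. Their FDRs per the authors' deposited table were between 0.672 and 0.825.

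Of the 3 soluble factors only STC2 was called, and it fell in double-null cells. STC2, a secreted glycoprotein that PERK and ATF4 can induce, had 4895 and 4698 depth-corrected reads in the deeper and shallower library of the SMARCB1 null, 6524 and 5938 in SMARCA4-null cells, 3396 and 4133 in double-null cells, and 6115 and 6164 in WT. Both SMARCB1-null and both double-null libraries lay below both WT libraries, as did 24.3% and 19.6% of the 4519 recovered genes, and the SMARCA4-null libraries lay on either side of them (26.0% of the recovered genes had both SMARCA4-null libraries below). The authors' deposited table gave ratios of 0.781 (FDR 0.328), 1.01 (FDR 1) and 0.613 (FDR 0.0138). edgeR's quasi-likelihood test gave log2 fold changes of -0.36 (adjusted p = 0.028), 0.02 (adjusted p = 0.931) and -0.71 (adjusted p = 0.00032). The double-null call held without each library in turn, with an adjusted p of 0.0026 without the deeper double-null library. The SMARCB1-null call was lost without any single SMARCB1-null, SMARCA4-null or WT library, with adjusted p between 0.0797 and 0.203, and without the filter (0.0608).

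The difference between nulls could be tested directly for STC2. It was lower in double-null cells than in SMARCA4-null cells by 0.73 on the log2 scale (edgeR adjusted p = 0.000482), and this held in each fit that left out 1 library. It was also lower in SMARCB1-null cells than in SMARCA4-null cells, with a log2 difference of -0.38 (edgeR adjusted p = 0.0279, with 15.9% of genes called), but that call was lost without any single SMARCB1-null, SMARCA4-null or WT library, with adjusted p between 0.1 and 0.255, and without the filter (0.0646). The double null and the SMARCB1 null differed by -0.35 (edgeR adjusted p = 0.0824, with 4.66% of genes called), a contrast that was called with TMM scaling (0.0399), by DESeq2 (0.0179) and without the shallower double-null library (0.00695). Of the 15 contrasts between nulls over the 5 recovered members, the 2 of STC2 and 1 of DNAJC3 named above were called.

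MANF and CRELD2 are secreted ER stress factors, and neither was called. MANF had 6201 and 5387 depth-corrected reads in the deeper and shallower library of the SMARCB1 null, 5643 and 5203 in SMARCA4-null cells, 5643 and 5937 in double-null cells, and 5222 and 5782 in WT. The groups overlapped, and edgeR's adjusted p was 0.663, 0.931 and 0.621. CRELD2 had ratios of 1.1, 0.887 and 1.23 per the authors' deposited table, with FDRs of 0.877, 0.871 and 0.519, and overlaps ALG12 on the opposite strand.

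Other genes of the same pathways gave a context for the 34. Among 12 cytosolic tRNA synthetases, which charge tRNAs and are ATF4 targets as a class, the authors' deposited table called 5 higher and 0 lower in SMARCB1-null cells, 7 and 0 in SMARCA4-null cells, and 3 and 0 in double-null cells. Over all genes it called 7.86%, 7.39% and 12% higher and 5.76%, 4.49% and 5.97% lower in the same order. EPRS, for glutamate and proline, had log2 ratios of 0.67, 0.63 and 0.62, and MARS, for methionine, 0.45, 0.44 and 0.44, each called in all 3 nulls of the authors' deposited table. Of 9 amino acid transporters, the authors' deposited table called 3 higher and 1 lower, 2 and 0, and 2 and 0 in the same order. SLC7A11, the cystine importer, rose by 1.16 and 1.09 on the log2 scale in SMARCB1-null and double-null cells, and had 0.45 with an FDR of 0.105 in SMARCA4-null cells per the authors' deposited table. SLC6A9, a glycine transporter, was called at -0.79 in SMARCB1-null cells and at 0.67 in SMARCA4-null cells per the authors' deposited table, as VLDLR was called in opposite directions.

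Of 12 measured effectors of the ATF4 programme, the authors' deposited table called 3, 4 and 3 higher and 0 lower in SMARCB1-null, SMARCA4-null and double-null cells, where it called 13.6%, 11.9% and 18% of all genes in either direction. DDIT4 (REDD1), an inhibitor of mTORC1, had log2 ratios of 1.63 (FDR 3.72e-05), 2.97 (FDR 5.9e-19) and 1.88 (FDR 4.45e-07) per the authors' deposited table. SESN1, a sestrin that p53 also induces, had 2.41, 1.26 and 2.68, all called per the authors' deposited table. The other enzymes of serine, glycine, proline and one-carbon metabolism, 12 in all, went 0 higher and 1 lower, 1 and 2, and 0 and 2 per the authors' deposited table. That is below the share over all genes in SMARCB1-null cells, above it in SMARCA4-null cells and near it in double-null cells. TYMS, thymidylate synthase, was the only one of the 12 called in all 3 by the authors' deposited table, at log2 ratios of -0.52, -0.47 and -0.70. Of 14 genes for eIF2, its exchange factor, its kinases and their partners, the authors' deposited table called 0 higher and 1 lower, 1 and 0, and 0 and 1, below the share over all genes in each null. EIF2AK3, which encodes PERK, was the gene called lower, at -0.43 (FDR 0.0129) in SMARCB1-null cells and -0.38 (FDR 0.0242) in double-null cells, with -0.08 (FDR 0.851) in SMARCA4-null cells per the authors' deposited table.

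On the ER side, 24 further chaperones and folding enzymes had 6 higher and 1 lower in SMARCB1-null cells, 2 and 2 in SMARCA4-null cells, and 4 and 2 in double-null cells per the authors' deposited table. The share called over all genes was 13.6%, 11.9% and 18%. The degradation and heat shock genes below had smaller shares than that in each null, and the entry and export genes, the sensors and the mitochondrial genes lay within 2 genes of it. FKBP7, an ER prolyl isomerase, fell by 1.07, 0.89 and 1.05 on the log2 scale, and DNAJC1, an ER co-chaperone, rose by 0.30, 0.36 and 0.48, each called in all 3 nulls of the authors' deposited table. ERO1L, the oxidase that recharges the disulphide isomerases, was called in both single nulls at 0.67 and 0.63 per the authors' deposited table, and had 0.24 (FDR 0.504) in double-null cells. Of 16 other degradation genes, 1, 0 and 1 were called, all higher (1 had an unadjusted p under 0.05 in SMARCA4-null cells), and of 18 genes of ER entry and export, 3 higher and 1 lower, 2 and 1, and 1 and 2 per the authors' deposited table. SEC24D, a coat protein of ER export vesicles, had log2 ratios of 0.54, 0.53 and 0.74, all called per the authors' deposited table. SRP9, of the same list, was called lower in all 3 nulls there, at -0.35, -0.33 and -0.41. SPCS3, a signal peptidase subunit, was called at 0.38, 1.23 and -0.43 per the authors' deposited table. Of 9 other stress sensors and their processing enzymes, EIF2AK3 included, the authors' deposited table called 0 higher and 1 lower, 2 and 0, and 0 and 1. CREB3L1, a membrane-bound factor that drives secretory genes, had 2.01 (FDR 0.577), 4.81 (FDR 0.0198) and 3.32 (FDR 0.146) per the authors' deposited table. For comparison, 10 cytosolic heat shock genes had no call in either single null (1 had an unadjusted p under 0.05 in each) and 1 lower call in double-null cells, HSPB1 at -0.38, per the authors' deposited table. Of 8 mitochondrial chaperones and proteases, 2, 1 and 1 were called higher per the authors' deposited table, HSPA9 among them at 0.49 in SMARCB1-null cells and 0.42 in double-null cells.

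**Figure D4:**
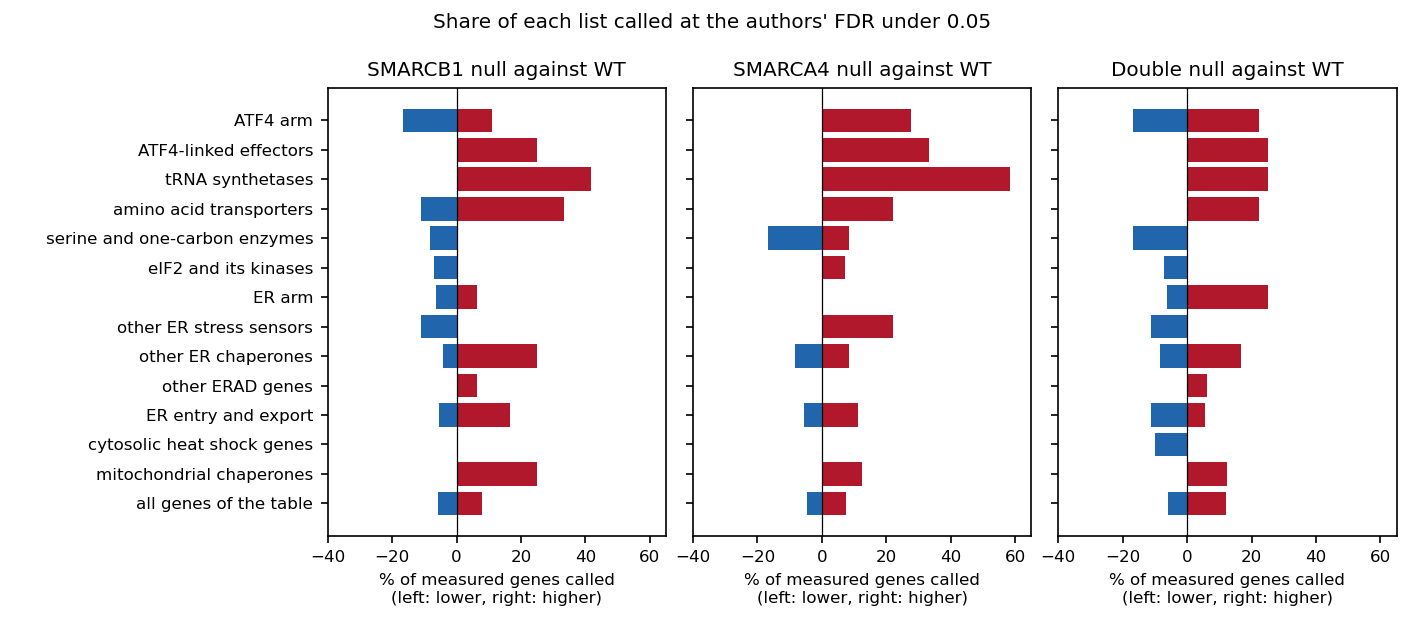
The horizontal axis gives the share of measured genes of each list, in percent, called at an FDR under 0.05 per the authors' deposited table, with higher calls to the right of 0 and lower calls to the left, for the SMARCB1 null, the SMARCA4 null and the double null against WT. The bottom row gives all 19541 genes, and the tRNA synthetases reach the furthest right in SMARCB1-null and SMARCA4-null cells, with 5 and 7 of 12 genes.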

How the data were processed

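Per the labels' protocols, RNA was taken with Trizol from cells near confluence and made into libraries with a stranded mRNA kit. STAR, Partek 4.0 and the hg19 build are named, per the submitters' processing notes. Not given in the sources used here are the authors' test, their normalization and their annotation. The deposited tables hold, per the file headers, a gene's total reads over all samples (an estimated count, not always whole), and for each null against wildtype a p-value, an adjusted p-value, a ratio and a signed fold (a score equal to the ratio or minus its inverse), all made by the authors. They hold 0 columns of per-sample values, and separate cultures within a group are not stated beyond guide and passage, so p-values reflect only how these samples spread, which may be technical.

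The 34 members and all gene lists were chosen with earlier results of these data known. Of each other list, the up to 4 called genes with the largest log2 ratio in either direction could be named. Depth-corrected group levels were computed from the deposited total count and ratios. Reads per library were recovered from the same values, with details chosen after seeing the data. Each ratio was treated as a quotient of summed reads over depth plus a small constant, genes with few reads gave what 1 read adds in each library, and whole reads were then solved by lattice reduction (Python 3.11.15, sympy 1.14.0) for 6790 of 9330 genes with totals whole within 0.001. The largest relative residual allowed was 3e-07. The share solved was 89.7% up to 600 reads, 58.6% up to 10000 and 61.2% above. Of 1000 sets of ratios given a small shift, set at 1e-04, 0 gave a solution. Counting error limits low genes such as NUPR1 most.

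For these genes edgeR 4.0.16 in R 4.3.3 gave the quasi-likelihood test (robust, the 8 libraries in 1 fit, the relative depths as library sizes, filterByExpr, Benjamini-Hochberg adjustment at 0.05). Scripts were tested on simulated data. In a simulated comparison of SMARCB1-null cells with WT (4170 genes), 79% of 2-fold and 17% of 1.5-fold changes were called. Its dispersion of 0.02 was set and not estimated from these data. Of 3970 unchanged genes, 5 were called. These shares need not hold for the real fits, and they do not describe the authors' test. A missing call for a change of 1.5-fold or less does not show that a gene was unchanged. Median log2 changes were 0.09 (SMARCB1 null), 0.05 (SMARCA4 null) and 0.17 (double null), against -0.00, 0.00 and 0.02 with TMM. Among calls, the higher ones made up 65.7%, 66.6% and 73.7% and, with TMM, 50.7%, 57.8% and 52.5%. Alternatives were DESeq2 1.42.0, TMM, no filter, fits of 4 libraries, each library left out, other thresholds, another table and centred ratios. Promoters came from RefSeq (GRCh38.p14), matched by symbol for 30 of the 34 genes. Overlapping genes came from the GENCODE annotation.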

Additional observations from a re-analysis of the deposited data

Results flagged for a closer look

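3 differences between nulls passed the test of the difference itself, edgeR's quasi-likelihood test on recovered reads. STC2 was lower in the double null than in the SMARCA4 null by a log2 difference of -0.73 (adjusted p = 0.000482), and the call held in each of the 8 fits that left out 1 library. STC2 was also lower in the SMARCB1 null than in the SMARCA4 null, by -0.38 (adjusted p = 0.0279), but the call was lost in 6 of those 8 fits (adjusted p between 0.1 and 0.255) and without the filter (0.0646). DNAJC3 was higher in the double null than in the SMARCA4 null by 0.32 (adjusted p = 0.0408), but the call was lost in 7 of those 8 fits (adjusted p between 0.0693 and 0.374), with TMM scaling (0.136) and without the filter (0.0745). DESeq2 on all libraries called this DNAJC3 difference (adjusted p = 0.00569). The latest passages are those of the double null, so its differences from the SMARCA4 null cannot be told apart from passage.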

How the results depend on the processing

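No paired analysis was possible because recovered libraries are known only as deeper and shallower and could not be tied to the replicate letters. In the SMARCB1 null, members called higher in the authors' deposited table numbered 6 at an FDR under 0.1 and 1 with a 1.5-fold minimum, against 3, and members called lower 2 at an FDR under 0.01 and 1 with the minimum, against 4. In the SMARCA4 null, 2 were called higher at an FDR under 0.01, against 5. In the double null, 4 were called higher at an FDR under 0.01 and 4 with the minimum, against 8, and 2 and 1 lower, against 4. The ATF4-arm median was 0.07 in the SMARCB1 null and 0.13 in the double null with STC2 counted in that arm, and 0.05 and 0.13 among members with at least 5000 reads. Of the 5 recovered members, 1 was called higher in the SMARCB1 null, 0 with TMM and 2 with only the 4 libraries compared, and 1 lower, 0 without the filter. In the SMARCA4 null 1 was called higher, 2 with DESeq2, 0 without the filter and 3 with 4 libraries. Leaving out each library gave 0 to 2 higher and 0 to 1 lower in the SMARCB1 null, 0 to 3 higher and 0 lower in the SMARCA4 null, and 1 to 3 higher and 1 lower in the double null. Directions of uncalled genes near no change flipped. With ratios centred on the median gene, a shift of 0.05, 0.03 and 0.08, these were ATF4 (-0.04), PPP1R15A (-0.02) and PDIA6 (-0.02) in the SMARCB1 null, STC2 (-0.01) in the SMARCA4 null, and XBP1 (-0.03), PDIA6 (-0.02), MANF (-0.01) and ERN1 (-0.01) in the double null. With TMM they were MANF (-0.02 in the SMARCB1 null, -0.08 in the double null), STC2 (-0.03 in the SMARCA4 null) and SESN2 between the double null and the SMARCA4 null (-0.04). Over the fits that leave out 1 library, MANF ranged from -0.03 to 0.17 in the SMARCB1 null, from -0.09 to 0.05 in the SMARCA4 null and from -0.01 to 0.19 between the SMARCB1 null and the SMARCA4 null, STC2 from -0.05 to 0.09 in the SMARCA4 null, and SESN2 from -0.11 to 0.21 between the double null and the SMARCA4 null. The cause was not tested. Low depth limits ALDH1L2 and NUPR1 most, and 2 libraries a group limit every test.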
